A study of Mus musculus with 12 samples.

Results

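The mitochondrial ribosomal protein genes were taken as every gene of the deposited table whose symbol is Mrpl or Mrps followed by a number and at most 1 letter, which gave 78 genes of 53801, 49 named for the large subunit (Mrpl) and 29 for the small subunit (Mrps). All 78 were abundant enough to be tested, among 15119 genes in all. RNA was profiled in whole bone marrow of C57BL/6N mice in 12 libraries, 3 per group. Sham mice had a sham operation and no drug, Sham-E mice a sham operation with EMPA (the labels' name for the agent, given without a dose), MI mice a myocardial infarction made by tying off the LAD, a coronary artery of the heart, and MI-E mice the infarction with EMPA. The sources used here do not state the age of the mice, the time from surgery to sampling, or whether each library came from 1 mouse, so p-values measure the spread between libraries, which may be technical.

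Mitochondria carry their own ribosome, the mitoribosome, which makes only the few membrane subunits of the respiratory chain and ATP synthase that are encoded in mitochondrial DNA. Its ribosomal RNAs come from mitochondrial DNA, whereas all of its proteins are encoded in the nucleus, made on cytosolic ribosomes and imported. The small subunit reads the messenger RNA, and the large subunit joins the amino acids. Some of the proteins have counterparts in bacterial ribosomes (46 of the 78 here), and others were added in mitochondria (31). Names do not always give the position: Mrps30 and Mrps18a sit in the large subunit in the known structures, and Mrps36, long counted as a ribosomal protein, is now regarded as part of a ketoglutarate dehydrogenase complex. Placed by structure, 51 of the genes belong to the large and 26 to the small subunit.

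The genes lie on many chromosomes. Their promoters are known for sites of NRF1 and of ETS-family factors such as GABP, which act at many nuclear genes for mitochondrial proteins. RefSeq (GRCm38.p6, the sequence of mm10) held a promoter for 69 of the 78. In the 250 bases before the RefSeq start, searched on both strands, the NRF1 motif, GCGCA and GCGC with any 1 base between them, stood in 10 of the 69 promoters (14.5%), against 8.02% of 10783 promoters of tested genes and 3.86% of all 27025 promoters. The ETS motif CCGGAAG stood in 16 of the 69 (23.2%), against 13.5% of promoters of tested genes and 7.11% of all. One or the other motif was in 25 (36.2%), against 20.3% and 10.4%. Of the other motifs searched, GGGGCGG, bound by SP factors, stood in 23 promoters (33.3%, against 38.3% of promoters of tested genes), the E-box CACGTG in 5 (7.25% against 8.29%) and the YY1 motif AAGATGGC in 4 (5.80% against 2.05%). A match describes the letters and is not evidence of binding. The 250 bases are shown for 5 of the genes that stood higher in all 3 MI-E libraries than in the other 9 in CPM (counts scaled by library size). Mrpl12, Mrpl57, Mrps26 and Mrpl34 held an NRF1 or ETS motif, and Mrpl2 held neither. Other genes, among them Mrpl23, Mrpl28 and Mrps24, stood higher in the same way and are not shown. The 5 thus do not give the share of such genes that hold a motif. Capitals mark the NRF1 motif in Mrpl12 (81 to 72 bases before the start) and Mrpl57 (57 to 48) and the ETS motif in Mrps26 (14 to 8) and Mrpl34 (37 to 31), read on the gene's own strand, so that a motif on the other strand appears as its reverse complement.
Mrpl12 (chr11:120484387-120484636, plus strand): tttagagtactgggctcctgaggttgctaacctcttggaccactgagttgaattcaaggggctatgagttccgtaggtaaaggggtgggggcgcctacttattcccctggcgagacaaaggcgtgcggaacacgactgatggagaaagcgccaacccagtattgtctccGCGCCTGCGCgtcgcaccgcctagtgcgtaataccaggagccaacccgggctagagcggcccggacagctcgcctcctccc
Mrpl57 (chr14:57825989-57826238, plus strand): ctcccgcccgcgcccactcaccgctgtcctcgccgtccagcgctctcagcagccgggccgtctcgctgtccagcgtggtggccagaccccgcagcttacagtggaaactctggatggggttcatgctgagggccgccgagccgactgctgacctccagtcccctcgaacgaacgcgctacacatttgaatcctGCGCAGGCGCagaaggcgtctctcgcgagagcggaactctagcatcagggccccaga
Mrps26 (chr2:130563507-130563756, plus strand): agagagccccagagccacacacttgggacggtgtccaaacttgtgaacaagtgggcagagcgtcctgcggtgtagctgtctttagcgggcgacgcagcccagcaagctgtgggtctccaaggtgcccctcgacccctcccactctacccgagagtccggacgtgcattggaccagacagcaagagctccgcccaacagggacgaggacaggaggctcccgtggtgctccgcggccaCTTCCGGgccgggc
Mrpl34 (chr8:71464676-71464925, plus strand): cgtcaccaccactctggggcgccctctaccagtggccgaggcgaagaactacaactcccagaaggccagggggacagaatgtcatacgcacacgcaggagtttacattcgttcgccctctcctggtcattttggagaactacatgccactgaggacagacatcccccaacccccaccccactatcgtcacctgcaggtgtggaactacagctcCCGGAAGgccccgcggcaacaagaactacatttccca
Mrpl2 (chr17:46645979-46646228, plus strand): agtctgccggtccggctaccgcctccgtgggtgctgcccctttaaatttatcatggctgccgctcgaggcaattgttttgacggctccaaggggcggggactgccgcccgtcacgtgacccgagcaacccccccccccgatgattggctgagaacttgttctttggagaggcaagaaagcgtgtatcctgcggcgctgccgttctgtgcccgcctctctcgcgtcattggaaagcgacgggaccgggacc

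Many of these genes share a start region with a neighbour that is read the opposite way. In GENCODE M21, 33 of the 78 (42.3%) had a protein-coding gene starting on the other strand within 1000 bases, against 15.9% of 13131 tested protein-coding genes. Mrpl57 and the kinetochore gene Ska3 started 49 bases apart, Mrpl49 and Fau, which encodes a protein of the cytosolic ribosome, 59 bases apart, and Mrpl32 and the proteasome gene Psma2 75 bases apart. Mrps12 started 172 bases from Sars2, which encodes the mitochondrial seryl-tRNA synthetase. Mrps11 and Mrpl46, a small and a large subunit gene, started 412 bases apart on chromosome 7 with their first exons overlapping. Whether the counting used strand is not stated, so reads from overlapping exons cannot be assigned to 1 gene with certainty. This touched 3 members over more than 50% of their exon length (Mrps25 with Nr2c2, Mrps34 with Mapk8ip3 and Mrpl53 with Gm42688).

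The members were expressed at moderate and unequal levels. In TPM (a gene's share of all transcripts, corrected for transcript length), the median gene stood at 38.0 over the 12 libraries, with a median of 44.9 for large and 36.6 for small subunit genes. Mrpl33, a small protein of the large subunit, was the most abundant at 458 TPM, followed by Mrpl52 at 221, Mrps21 at 176 and Mrpl30 at 132. The least abundant were Mrpl11 and Mrpl1, proteins of the 2 stalks of the large subunit, at 7.80 and 8.68 TPM, Mrpl19 at 8.97 and Mrpl47 at 10.6. Highest and lowest thus differed 58.7-fold, although each protein other than that of Mrpl12 is held once in a mitoribosome. The standard deviation (SD) of log2 CPM over the 12 libraries had a median of 0.22 for the members, against 0.33 over all genes tested. The members were not compared with genes of like abundance. Mrpl32, Mrpl37 and Mrpl3 varied least (0.10, 0.12 and 0.12), and Mrps21, Mrpl54 and Mrps36 most (0.42, 0.36 and 0.35).

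The 12 libraries held 21175087 to 24606783 counts, of which the members took 0.211 to 0.272%. Several properties of the libraries moved with the groups. The insert length implied by the ratio of deposited counts to TPM was 263 to 265 bases in the 3 MI libraries and 271 to 287 in the other 9. Counts in genes of mitochondrial DNA made up 2.23 to 3.58% in MI and 1.33 to 1.87% elsewhere. The 8 B-lineage markers averaged 6.84 to 7.35 log2 CPM in Sham, against 5.64 to 6.19 in MI, with MI-E at 5.93 to 6.14. The 3 megakaryocyte markers spanned 5.53 to 5.81 in MI-E, above every other library (3.24 to 5.27). The 8 proliferation markers averaged 8.07 to 8.20 in MI, below the 8.35 to 8.67 of MI-E, the 8.36 to 8.61 of Sham and, but for Sham-E 1 at 8.18, the Sham-E libraries; 6 of the 8 were positive in MI-E against MI (4 at an unadjusted p under 0.05) and 7 negative in MI against Sham. Sham-E 1 stood apart from all other libraries, with B-lineage markers at 4.41, erythroid markers at 7.38 against 8.86 to 10.5 and early granulocyte markers at 10.8 against at most 9.73. Their part in the results on mitoribosome genes was not tested, and in whole marrow fewer cells of a type and less RNA per cell cannot be told apart.

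On average, the libraries of MI-E stood highest in log2 CPM for the mitoribosome genes as a set, in both subunits. CPM is the count of a gene scaled to a fixed library total, with library sizes scaled by TMM, and a level of a set is the mean log2 CPM over its genes. The 49 large subunit genes averaged 4.80, 4.82 and 4.78 in the Sham libraries, 4.89, 4.76 and 4.77 in Sham-E, 4.96, 4.73 and 4.70 in MI, and 5.03, 5.08 and 4.96 in MI-E. The 29 small subunit genes averaged 4.53, 4.51 and 4.50 in Sham, 4.63, 4.51 and 4.46 in Sham-E, 4.67, 4.41 and 4.44 in MI, and 4.80, 4.76 and 4.68 in MI-E. In both subunits 1 MI library (MI 1) stood well above the other 2. It lay just above the lowest MI-E library (MI-E 4) in the large subunit and just below it in the small subunit (4.67 against 4.68), whereas Sham was tight and Sham-E 1 was the highest of its group. Group means over all 78 genes were 4.69 ± 0.02 (SD, n = 3) in Sham, 4.71 ± 0.08 in Sham-E, 4.69 ± 0.14 in MI and 4.92 ± 0.06 in MI-E, and the differences among Sham, Sham-E and MI were smaller than their spread. In summed TPM the groups overlapped more. All members together came to 4296 ± 47.8 TPM in Sham, 4264 ± 152 in Sham-E, 4038 ± 336 in MI and 4465 ± 287 in MI-E. MI-E 3, at 4262, lay below Sham 1, Sham 3, Sham-E 1, Sham-E 2 and MI 1. The small subunit genes summed to 1282 ± 128 TPM in MI-E and 1278 ± 9.74 in Sham, with MI-E 3 (1176) below every Sham library.

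**Figure D1:**
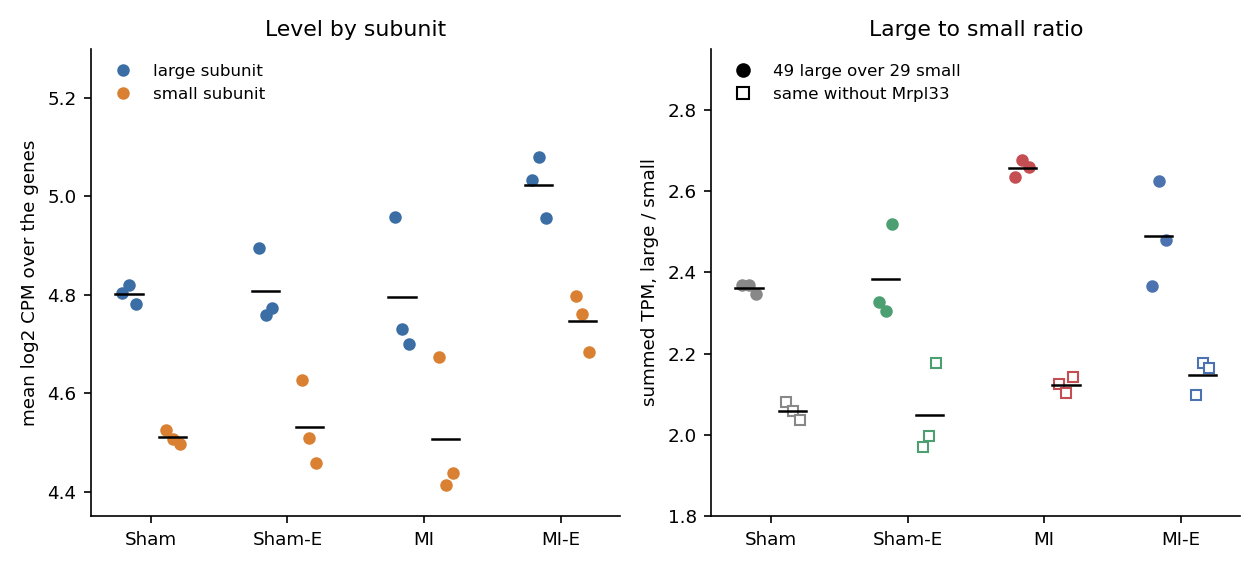
Left, mean log2 CPM over the 49 large and 29 small subunit genes in each library (points, 3 per group) with group means (bars); right, summed TPM of the large over the small subunit genes in each library, with all members (filled) and without Mrpl33 (open). Both subunits stood highest on average in MI-E in log2 CPM, and the ratio in MI was 2.63 to 2.68 with Mrpl33 and 2.10 to 2.14 without it; the vertical axes do not start at 0.

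Large and small subunit genes did not part from each other on the mean log scale. The large subunit mean exceeded the small subunit mean by 0.29 ± 0.02 in Sham, 0.28 ± 0.03 in Sham-E, 0.29 ± 0.03 in MI and 0.28 ± 0.04 in MI-E (log2 CPM, SD, n = 3), and the ranges of the 4 groups overlapped. Summed TPM gave another picture. Large over small was 2.37, 2.37 and 2.35 in Sham, 2.33, 2.31 and 2.52 in Sham-E, 2.63, 2.68 and 2.66 in MI, and 2.37, 2.62 and 2.48 in MI-E, with every MI library above every other library. Mrpl33 alone made up 14.0 to 15.6% of the summed TPM of all members in MI and 7.98 to 12.3% elsewhere. Without it the Sham libraries gave a ratio of 2.04 to 2.08, those of Sham-E 1.97 to 2.18, of MI 2.10 to 2.14, and of MI-E 2.10 to 2.18, so that MI overlapped both EMPA groups and stayed narrowly above Sham. Leaving out Mrpl33 thus took the group means of MI and Sham from 2.66 and 2.36 to 2.12 and 2.06. No other gene was left out in its place. The small subunit genes summed to 1105 TPM on average in MI and 1278 in Sham, and the large to 2934 and 3018. Mrps21, of the small subunit, averaged 117 TPM in MI and 211 in Sham.

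Gene by gene, MI-E had the highest mean of the 4 groups for 56 of the 78 members, 38 large and 18 small, against 27.8% of all genes tested. Sham had the highest mean for 2, Sham-E for 6 and MI for 14 (against 20.8%, 19.4% and 32% of all genes). MI had the lowest mean for 33 (42.3%) and MI-E for 2, Mrpl1 and Mrpl39 (2.56%), against 28.6% and 28.4% of all genes. Sham had the lowest mean for 27 (34.6%) and Sham-E for 16 (20.5%), against 25.4% and 17.6%. Counted library by library, 70, 69 and 57 of the 78 members lay above their own median in the 3 MI-E libraries, and 58 did in MI 1 and 45 in Sham-E 1. In the other 7 libraries this held for 18 to 30. Over all genes tested the share was 48.6 to 52.4% in each library.

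**Figure D2:**
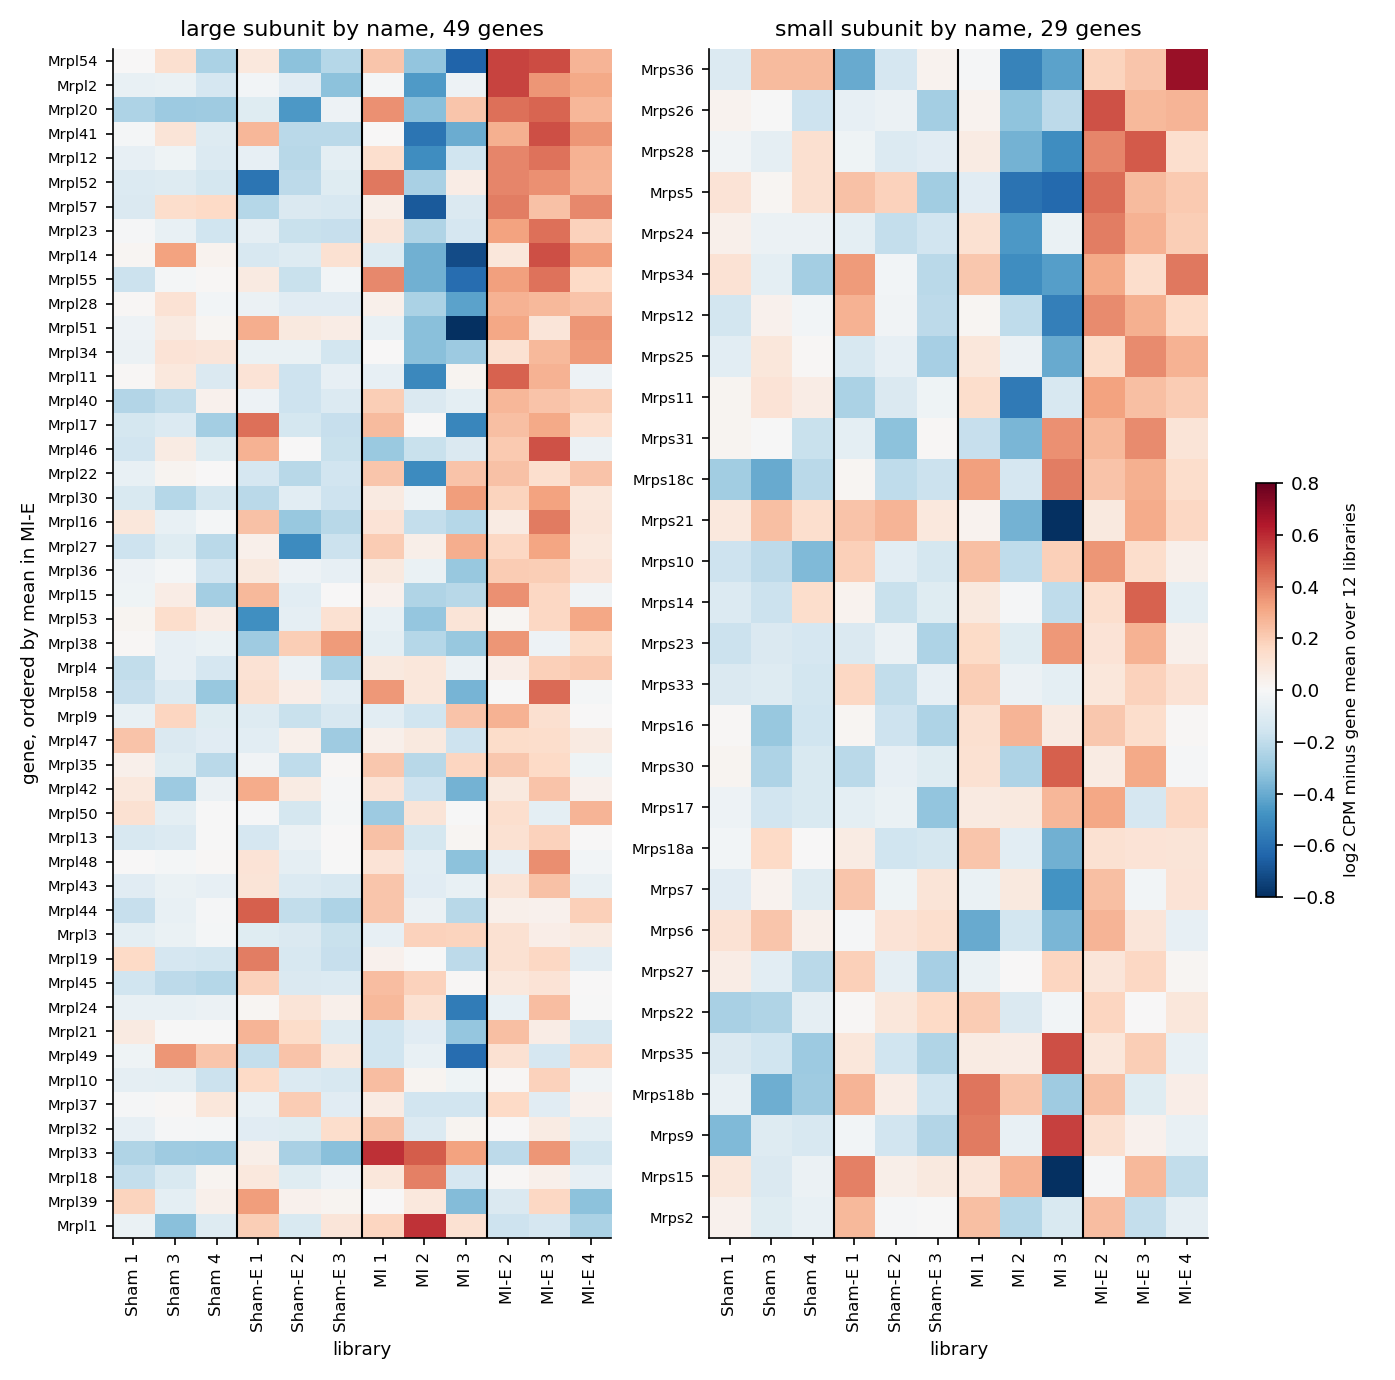
Level of each mitoribosome gene in each library, as log2 CPM minus the gene's mean over the 12 libraries (colours end at -0.8 and 0.8), for 49 large (left) and 29 small subunit genes (right), ordered by their mean in MI-E. The 3 MI-E columns are mostly red, with 70, 69 and 57 of 78 genes above their own median, while MI 2 and MI 3 hold most of the deep blue fields.

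The effect of infarction without drug (MI against Sham) was split, with no common direction over the set. Of the 78 members 36 had a positive log2 fold change (46.2%, against 52.4% of all genes). The median was -0.02 for the large and 0.00 for the small subunit, and 0.02 for all genes. No member passed an adjusted p of 0.05 in edgeR's quasi-likelihood test, where 0.417% of all genes did. At an unadjusted p under 0.05, 9 members were higher and 6 lower (11.5% and 7.69%, against 10.9% and 8.61% of all genes), and the 3 MI libraries did not overlap the 3 Sham libraries for 14 members that were higher and 8 that were lower (17.9% and 10.3%, against 13.4% and 13.8%). DESeq2 called 3 members (Mrpl33, Mrps18c and Mrps9, all higher), where it called 7.05% of all genes (3.9% higher), so that the members' share was no larger than the background. Limma-voom called 0.

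Mrpl33 had the smallest p of this comparison. Its CPM was 92.4, 89.6 and 89.3 in Sham, 113, 91.4 and 86.6 in Sham-E, 164, 153 and 136 in MI, and 94.4, 139 and 98.6 in MI-E. Every MI library stood above every Sham and Sham-E library, and 1 MI-E library reached the MI range. The log2 fold change of MI against Sham was 0.74 ± 0.16 (standard error, SE), with an edgeR adjusted p of 0.057. This value lay close to the threshold and crossed it in 4 of the alternatives: 0.0028 with DESeq2, 0.048 with no filter on low counts, 0.033 with only the 2 groups in the fit, and 0.013 without Sham-E 1. Calls over all genes also rose in these settings, from 63 of 15119. They came to 1066 of 15119, 156 of 24969, 344 of 14402 and 1224 of 15496 in the same order. For Mrpl33 the difference of MI-E from MI was -0.45 ± 0.16 (adjusted p = 0.19).

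Mrps9 and Mrps18c, small subunit proteins with bacterial counterparts, came next among the higher genes. Mrps9 stood at 27.8, 33.0 and 32.6 CPM in Sham and 47.3, 34.2 and 51.9 in MI (log2 fold change 0.51 ± 0.16, adjusted p = 0.11), and Mrps18c at 23.9, 21.9 and 24.9 against 36.3, 26.3 and 38.4 (0.52 ± 0.15, adjusted p = 0.10). For both genes the groups did not overlap, and MI 2 was the lowest of its group. Without MI 2 both passed in edgeR, with adjusted p of 0.034 and 0.032, and calls over all genes rose to 285 of 15506. The 2 paralogues of Mrps18c, which encode proteins at other places of the mitoribosome, had smaller or opposite differences, 0.39 ± 0.20 for Mrps18b and -0.11 ± 0.16 for Mrps18a (adjusted p = 0.29 and 0.73). In TPM the 3 paralogues stood at 98.6 (Mrps18c), 37.2 (Mrps18a) and 28.8 (Mrps18b) over the 12 libraries.

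At the lower end were Mrps5, Mrpl14 and Mrpl49. Mrps5, a protein of the small subunit near the decoding site, measured 29.2, 27.5 and 29.7 CPM in Sham and 25.5, 18.0 and 17.6 in MI, which did not overlap (-0.50 ± 0.18, adjusted p = 0.15). Mrpl14, which lies at the interface of the subunits, measured 18.5, 22.9 and 18.7 against 17.0, 14.0 and 11.1 (-0.51 ± 0.18, adjusted p = 0.16). Mrpl49 measured 34.6, 45.3 and 41.3 against 31.7, 34.0 and 23.2 (-0.45 ± 0.17, adjusted p = 0.19). Mrpl14 passed in a limma fit on log2(TPM + 1), at -0.80 ± 0.16 (adjusted p = 0.028), as did Mrps21 at -0.88 ± 0.18 (adjusted p = 0.035). On that scale the median of all genes was -0.11, and 282 of 15119 genes passed. Mrps21 varied widely within MI, at 27.0, 20.5 and 11.3 CPM.

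EMPA in sham-operated mice went with no common shift. Sham-E had a positive log2 fold change against Sham for 44 of 78 members (56.4%, against 52.5% of all genes), with medians of 0.02 in both subunits and 0.01 over all genes. No member passed in edgeR, DESeq2 or limma-voom, and 0% of all genes passed in edgeR and 0.0132% in DESeq2. At an unadjusted p under 0.05, 0 members were higher and 0 lower, against 1.22% and 0.681% of all genes (1.9% in both directions), and the libraries did not overlap for 6 that were higher and 8 that were lower (7.69% and 10.3%, against 4.52% and 4.46%). The smallest p belonged to Mrps22, a small subunit protein added in mitochondria, at 0.28 ± 0.14, and all adjusted p-values were 1.0 to 2 digits. The largest negative value was that of Mrps36, at -0.30 ± 0.21. Without Sham-E 1, 26 of 78 were positive, and the medians were -0.03 for the large and -0.04 for the small subunit.

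In infarcted mice the libraries with EMPA stood above those without for most members, with no single gene past the threshold. MI-E against MI was positive for 63 of 78 members (80.8%, against 47.6% of all genes), 41 of 49 in the large and 22 of 29 in the small subunit. The median log2 fold change was 0.22 in the large and 0.17 in the small subunit, and -0.02 over all genes. No member passed in edgeR, where 0.00661% of all genes did, nor in limma-voom. DESeq2 called 10, all higher in MI-E, where it called 3.82% of all genes (2.24% higher). At an unadjusted p under 0.05, 22 members were higher (28.2%, against 8.52%) and 2 lower (2.56%, against 8.88%). The libraries did not overlap for 24 members that were higher (30.8%, against 11.6%) and for 1 that was lower, Mrpl1 (1.28%, against 10.1%).

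The number of calls turned on MI 1. Without that library 18 members passed in edgeR, all higher in MI-E, and 68 of 78 were positive. Calls over all genes went the same way, to 988 of 15471 tested (6.39%, and 3.15% higher) from 1. With any other library left out in its place 0 passed, and over all such fits 58 to 68 were positive. The genes that passed without MI 1 included Mrps5 (adjusted p = 0.016), Mrpl12 (0.017) and Mrpl28 (0.017). The labels give no reason to leave the library out.

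**Figure D3:**
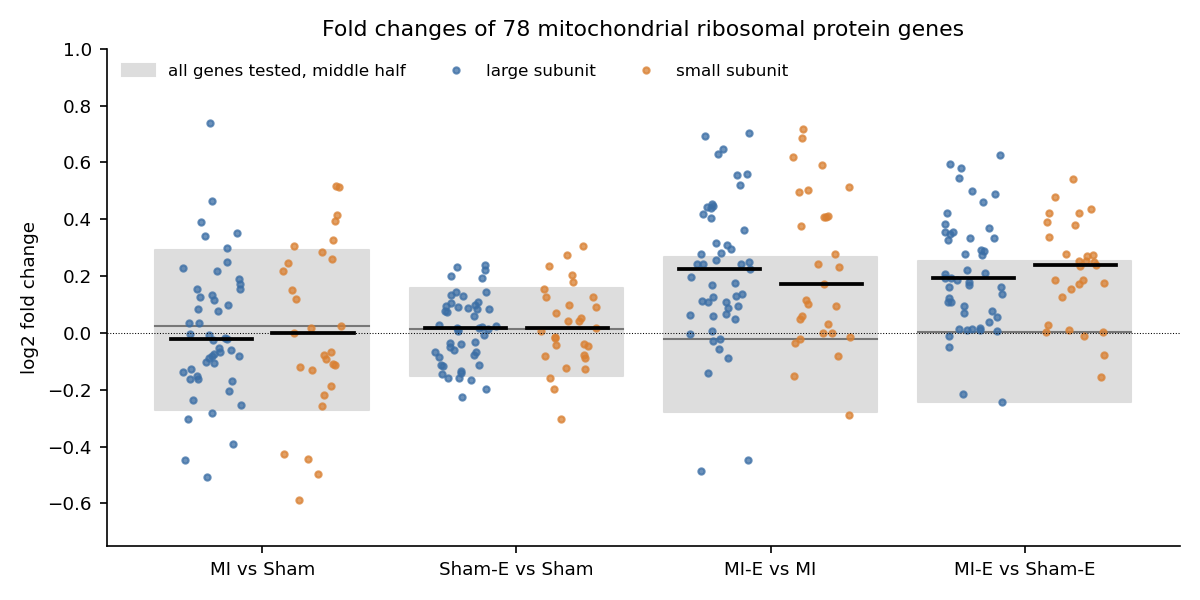
Log2 fold change of each mitoribosome gene (points; blue, 49 large and orange, 29 small subunit genes) in 4 comparisons, with subunit medians (black bars) and the quartiles and median of all 15119 genes tested (grey). The medians lie near 0 for MI against Sham and Sham-E against Sham, at 0.22 and 0.17 for MI-E against MI, and at 0.19 and 0.24 for MI-E against Sham-E.

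Mrps5 had the smallest p of MI-E against MI. Its 36.9, 32.3 and 31.4 CPM in MI-E stood above the 25.5, 18.0 and 17.6 of MI (log2 fold change 0.72 ± 0.18, adjusted p = 0.11) and above the 27.5 to 29.7 of Sham. Mrpl14 showed the same order of group means, with 19.5, 26.2 and 23.1 in MI-E against 17.0, 14.0 and 11.1 in MI (0.70 ± 0.18, adjusted p = 0.12). Its 18.5 to 22.9 CPM in Sham overlapped MI-E. Both genes were thus low in MI and near or above Sham in MI-E.

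Another group of genes was high in MI-E, with similar group means in Sham, Sham-E and MI. Mrpl2, a core protein next to the site where amino acids are joined, measured 43.7, 38.4 and 37.0 CPM in MI-E and 21.9 to 29.6 in the other 9 libraries (0.56 ± 0.15 against MI, adjusted p = 0.12). Mrpl12, the stalk protein that contacts translation factors and also binds the mitochondrial RNA polymerase, measured 75.7, 78.0 and 69.8 in MI-E and 40.8 to 63.2 elsewhere (0.52 ± 0.14, adjusted p = 0.13). Mrps26 measured 46.2, 38.9 and 39.3 in MI-E and 26.0 to 33.2 elsewhere (0.51 ± 0.14, adjusted p = 0.13). In all 3 genes the lowest MI-E library stood above the highest of the other 9 in CPM. MI 2 was the lowest library in each, and MI spread wider than Sham, as in Mrpl12 with 63.2, 40.8 and 51.7 CPM in MI. DESeq2 called all 3, with adjusted p of 0.025, 0.041 and 0.028. In TPM none of the 3 genes stood apart in this way. Mrpl2 was at 49.05 TPM in MI-E 3 and 79.9 in Sham-E 3, and Mrpl12 at 74.7 and 75.8 in the same libraries. Mrps26 was at 34.9 TPM in MI-E 3 and 40.0 in Sham-E 2.

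Of the members lower in MI-E than in MI, Mrpl1 and Mrpl33 had the smallest p-values, followed by Mrps9. Mrpl1, of the stalk where spent transfer RNA leaves, measured 19.7, 26.0 and 19.0 CPM in MI and 15.6, 15.9 and 14.7 in MI-E (-0.49 ± 0.16, adjusted p = 0.17), with no overlap. Mrps9 measured 38.8, 36.3 and 34.0 in MI-E, within the 34.2 to 51.9 of MI (-0.29 ± 0.16, adjusted p = 0.35).

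**Figure D4:**
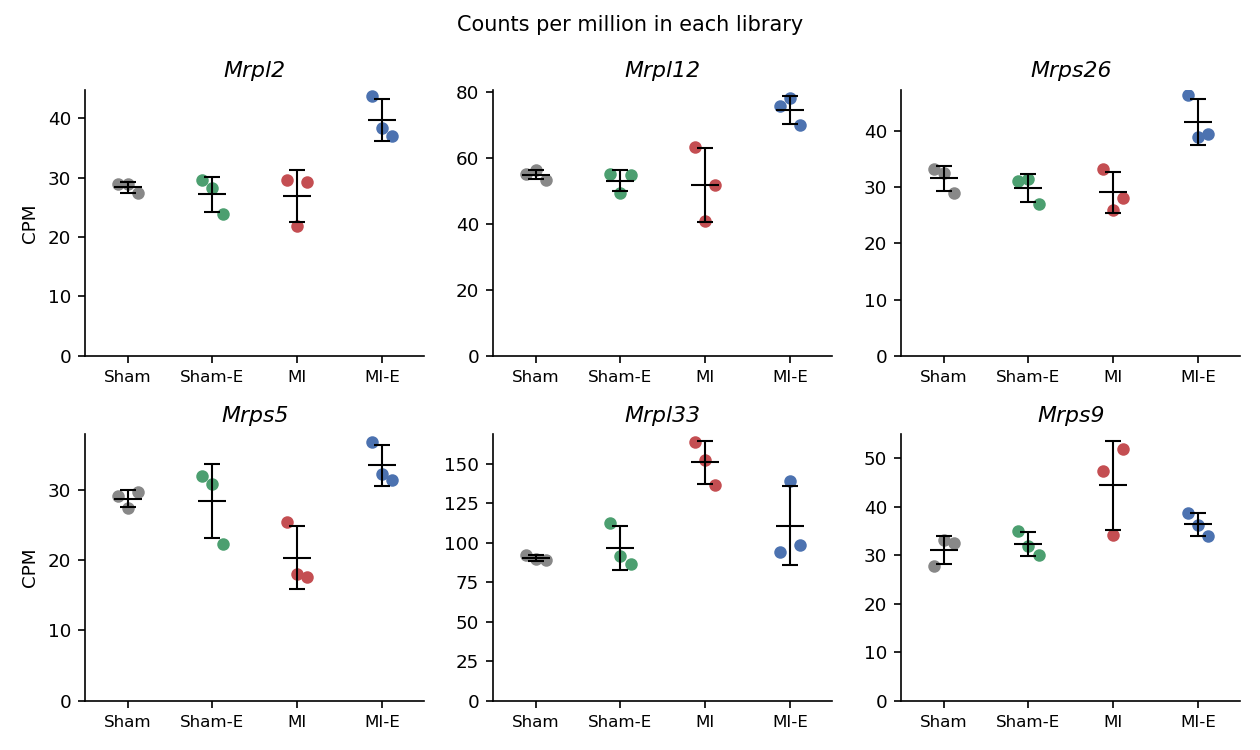
CPM of 6 mitoribosome genes in each library (points), with mean and SD of each group of 3 (bars). Mrpl2, Mrpl12 and Mrps26 were highest in the 3 MI-E libraries. Mrps5 was lowest on average in MI (17.6 to 25.5), and Mrpl33 (136 to 164) and Mrps9 (34.2 to 51.9) were highest on average in MI.

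MI-E also stood above Sham-E, the comparison of infarction under EMPA. Of the 78 members 71 were positive (91.0%, against 50.4% of all genes), 45 of 49 large and 26 of 29 small, with medians of 0.19 and 0.24 against 0.00 over all genes. No member and 0% of all genes passed in edgeR; limma-voom called 0 members and DESeq2 called 1, Mrpl2, and 1.4% of all genes (0.549% higher). At an unadjusted p under 0.05, 20 were higher (25.6%, against 5.99%) and 0 lower (against 7.45%). The libraries did not overlap for 30 that were higher (38.5%, against 11.7%) and for 1 that was lower, Mrpl1 (1.28%, against 12.2%). This comparison shares the MI-E libraries with the one before, so the counts are not independent. Without Sham-E 1, 68 were positive, and leaving out any 1 library gave 61 to 71.

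Mrpl2, Mrpl52 and Mrpl23 had the smallest p-values here. Mrpl2 measured 29.5, 28.2 and 23.9 CPM in Sham-E, all below the 37.0 to 43.7 of MI-E (0.55 ± 0.15, adjusted p = 0.24). Mrpl52 measured 18.2, 23.6 and 25.5 in Sham-E against 35.8, 35.1 and 32.9 in MI-E (0.63 ± 0.17, adjusted p = 0.24), and MI, with 36.4, 22.8 and 28.4, overlapped MI-E. Mrpl23, a protein near the exit of the peptide tunnel, measured 24.1, 22.4 and 22.3 against 31.6, 34.3 and 28.8 (0.46 ± 0.13, adjusted p = 0.24). The 7 members with a negative difference included Mrpl1 (-0.24 ± 0.16), Mrpl39 (-0.21 ± 0.17) and Mrps15 (-0.15 ± 0.24).

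The size of this shift depended on the scale. On log2(TPM + 1), 42 of 78 members were positive in MI-E against Sham-E, with a median of 0.03, while the median of all genes on that scale was -0.13. The members' median less that of all genes was thus 0.16 in TPM and 0.20 in the counts. For MI-E against MI, 58 members were positive in TPM, and the same difference was 0.23 in both scales. For MI against Sham it was -0.04 in both, although the TPM scale moved the members' median itself to -0.15.

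The difference between the EMPA effects after infarction and after sham (the interaction term) was positive for 57 of 78 members (73.1%, against 47% of all genes), with medians of 0.19 and 0.09 by subunit and -0.04 over all genes. No member passed in edgeR, against 0.00661% of all genes, and DESeq2 and limma-voom called 0, DESeq2 with 1.1% of all genes. At an unadjusted p under 0.05, 16 were positive and 2 negative (20.5% and 2.56%, against 6.22% and 7.28%). The largest values were those of Mrps36 (0.99 ± 0.29), Mrpl14 (0.86 ± 0.26) and Mrpl57 (0.78 ± 0.23), each with an adjusted p of 0.27. Mrpl57, a protein added in mitochondria, measured 33.7 to 36.5 CPM in Sham-E below the 36.6 to 44.2 of Sham, and 46.5 to 52.4 in MI-E above the 24.9 to 40.9 of MI.

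The differences moved with the share of G and C in the members' transcripts. The 26 members of highest GC content (53.9 to 60.8%) had a median of 0.41 for MI-E against MI, with 25 of 26 positive. The 26 in the middle had 0.20 and 21, and the 26 of lowest GC content (40.6 to 48.8%) had 0.06 and 17. The order was opposite for MI against Sham, with medians of -0.10, 0.01 and 0.12 and 5, 13 and 18 positive. Pearson's r of the log2 fold change with GC content was 0.50 across the 78 members for MI-E against MI and -0.35 for MI against Sham, against 0.33 and -0.14 across 15099 genes, which all rest on the same libraries. With offsets for GC content and length in each library, 59 of 78 members were positive in MI-E against MI and 56 in MI-E against Sham-E, with medians of 0.14 and 0.15 against -0.05 and -0.01 over all genes. With the same offsets the interaction term was positive for 50 of 78, with a median of 0.09 where it was 0.19 without them, and the median of all genes was -0.08. The part of the insert length, shortest in MI, was not tested.

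**Figure D5:**
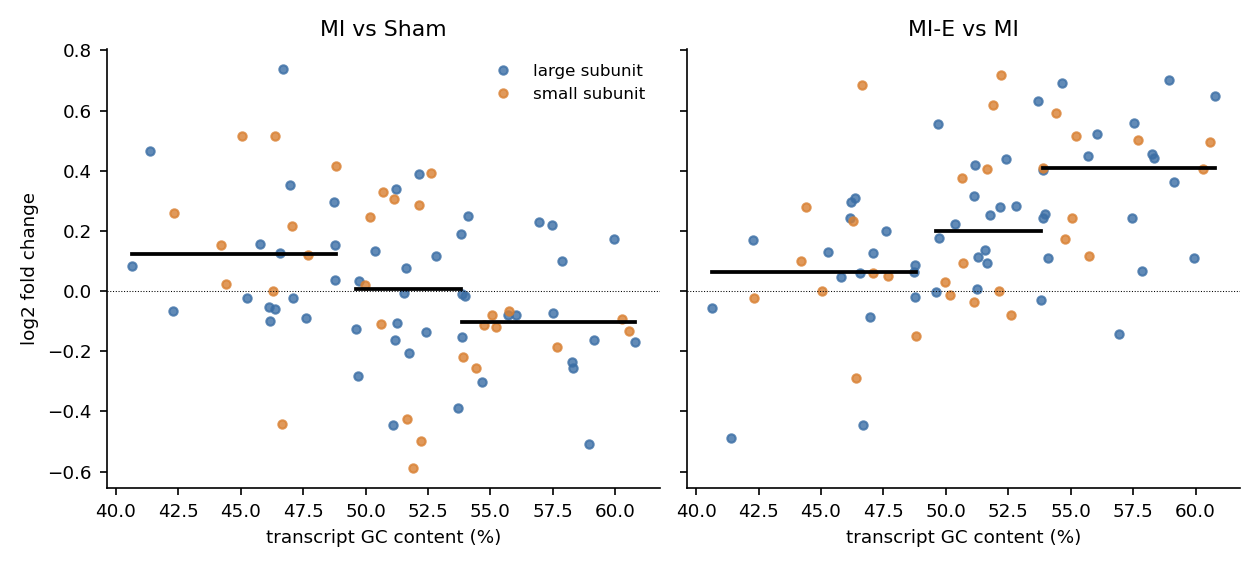
Log2 fold change of each mitoribosome gene against the GC content of its transcripts, for MI against Sham (left) and MI-E against MI (right), with the median of each group of 26 genes of like GC content (black bars). The medians went from 0.12 to -0.10 with rising GC content on the left and from 0.06 to 0.41 on the right.

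By origin and by promoter motif the members gave the following values, whose differences were not tested. For MI-E against MI the median was 0.21 over the 46 genes with bacterial counterparts and 0.20 over the 31 added in mitochondria, and against Sham-E 0.23 and 0.17. The 10 members with the NRF1 motif had a median of 0.11 in MI-E against MI, with 7 positive, and the 59 without it 0.22, with 48 positive. For the ETS motif it was 0.14 with 13 of 16 positive, against 0.23 with 42 of 53.

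The messages that the mitoribosome translates were highest in MI, with group means of 10.10 log2 CPM in Sham, 10.17 in Sham-E, 11.15 in MI and 10.19 in MI-E. Of the 13 messenger RNAs of mitochondrial DNA, 7 were counted at usable levels, whereas mt-Co2, mt-Co3, mt-Atp6, mt-Atp8 and mt-Nd4l were listed at 0 in all libraries and mt-Nd3 at 2 to 11 counts. All 7 were higher in MI than in Sham in every library, at a median of 0.98 on the log2 scale, and 2 passed in edgeR, mt-Nd6 at 1.61 ± 0.21 (adjusted p = 0.016) and mt-Nd1 at 1.27 ± 0.20 (adjusted p = 0.031). Both encode subunits of respiratory complex I. In MI-E against MI all 7 were negative, with a median of -0.88 and none past the threshold (smallest adjusted p = 0.085).

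The other nuclear genes of mitochondrial translation gave mixed counts, with 0 called in edgeR in all lists and comparisons. Of 5 mitoribosome proteins with other names, all 5 were positive in MI-E against MI, led by Gadd45gip1, of the large subunit, at 0.77 ± 0.16 (adjusted p = 0.085). Of 17 mitochondrial aminoacyl-tRNA synthetases, which load the transfer RNAs, 16 were positive with a median of 0.19. Translation factors (8 of 15, median 0.02) and assembly factors (14 of 25, median 0.06) were about even; the elongation factor Tufm was at 0.66 ± 0.25 (adjusted p = 0.21). Of the genes for transcription and replication of mitochondrial DNA 5 of 11 were positive, with a median of -0.13. Over all genes 47.6% were positive, with a median of -0.02.

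Among assembly factors, the smallest p-values of MI against Sham belonged to Mpv17l2 and Ddx28. Mpv17l2, needed to build the mitoribosome, averaged 18.7 CPM in Sham, 17.6 in Sham-E, 27.1 in MI and 28.4 in MI-E (MI against Sham 0.54 ± 0.15, adjusted p = 0.095; MI-E against Sham-E 0.69 ± 0.15, adjusted p = 0.24). Ddx28, an RNA helicase of large subunit assembly, averaged 26.7 CPM in MI and 23.1 in MI-E (MI against Sham 0.83 ± 0.23, adjusted p = 0.099). The 10 regulators of nuclear mitochondrial genes showed 0 calls; Nrf1 itself averaged 83.6, 78.4, 79.7 and 91.1 CPM in the same order.

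Genes for the proteins of the cytosolic ribosome stood highest in the same libraries. Their mean log2 CPM ranged over 8.89 to 9.09 in MI-E, while Sham spanned 8.51 to 8.58, Sham-E 8.50 to 8.57 and MI 8.20 to 8.85. Of the 83 tested, 71 were positive in MI-E against MI and 81 in MI-E against Sham-E, and their medians were 0.33 and 0.43 where the mitoribosome genes had 0.21 and 0.20. The higher level in MI-E was thus seen for both ribosomes, and the 2 sets share libraries and scaling.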

How the data were processed

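RNA of whole bone marrow was extracted with a miRNeasy Mini kit and sequenced, per the labels' protocols. Per the submitters' processing notes, CASAVA 1.8, STAR 2.4.0j and RSEM were used with mm10; their order and settings are not given in the sources, nor is the strand. The authors deposited 1 table of expected counts, which held whole numbers, and 1 of TPM. The Sham and MI-E columns carry other numbers than the sample titles and were assigned to their group only; libraries are named by column. Expected counts, rounded, were tested with edgeR 4.0.16 (robust quasi-likelihood, TMM, filterByExpr, R 4.3.3) in 1 fit of all 12 libraries with 8 residual degrees of freedom, and p-values were adjusted over 15119 genes (Benjamini-Hochberg, threshold 0.05). Alternatives used limma 3.58.1 and DESeq2 1.42.0. In data simulated on MI against Sham over 15119 genes, 4% of 50 genes changed 1.5-fold and 52% of 50 changed 2-fold were recovered. Genes were placed with GENCODE M21. The members, the pathway lists and the marker lists were chosen with earlier results of these data known. The naming rule took any members past the threshold and the 3 of smallest p per comparison and direction. It also took the most and least abundant and variable members, and 18 set by role. Values are given for only part of these, with none for Mrpl4, Mrpl10, Mrpl44, Mrpl58 and Mrps7. Mrpl28, Mrpl34, Mrpl46, Mrps11, Mrps24, Mrps25 and Mrps26, and Mrps21 on the TPM scale, were named after their values were seen. Up to 2 genes per other list and direction were named by p.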

Additional observations from a re-analysis of the deposited data

Results flagged for a closer look

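In 5 members every Sham-E library stood below every Sham library in CPM, while every MI-E library stood above every MI library. The EMPA libraries thus lay on opposite sides in the 2 operations. This was 6.41% of the members, against 0.952% of all 15119 genes tested. In TPM Mrpl28 and Mrpl34 kept this order, and Mrpl57, Mrps11 and Mrps24 did not. Mrpl57 was at 98.2 TPM in MI-E 3 and 132 in MI 1, and Mrps11 at 25.4 and 25.6. Mrps24 was at 93.3 TPM in Sham-E 2 and 89.0 in Sham 3. The interaction term (EMPA effect after infarction less that after sham, log2) was 0.53 for Mrps24, 0.78 for Mrpl57, 0.57 for Mrpl28, 0.61 for Mrps11 and 0.58 for Mrpl34. The adjusted p of that term in edgeR lay between 0.27 and 0.32 for all 5, so none passed. The sham side was small in each, from -0.11 ± 0.13 for Mrpl28 to -0.22 ± 0.17 for Mrpl57.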

How the results depend on the processing

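The medians by subunit and the counts of members called were recomputed under 15 other settings and with each library left out, and 386 of 422 such values stayed within the spread between libraries or within 1.5 times the count. The direction of a named gene could change with the scale. Mrpl52 averaged 25.1 CPM in Sham and 29.2 in MI, but 228 TPM in Sham and 205 in MI. For MI against Sham, the median was -0.15 (large) and -0.13 (small) when libraries were scaled by total counts, -0.16 and -0.15 in TPM with a pseudocount of 1 or no filter, and -0.16 and -0.15 with a pseudocount of 0.1; all genes moved too, to -0.10 under total counts and -0.11 in TPM. For this comparison 1 member was called with no filter on low counts, where 156 of 24969 genes were. DESeq2 called 3, and 1066 of 15119 genes. In TPM 2 were called with either pseudocount, where 282 (pseudocount of 1) and 269 (0.1) of 15119 genes were. With only the 2 groups fitted 1 was called, and 344 of 14402 genes. For MI-E against MI and MI-E against Sham-E, DESeq2 called 10 and 1 members, and 577 and 212 of 15119 genes. The MI-E against Sham-E medians were 0.019 and 0.041 in TPM with a pseudocount of 1 or no filter, 0.019 and 0.044 with a pseudocount of 0.1, and 0.29 for large subunit genes with no exon shared with another gene. With 1 library left out, calls ranged from 0 to 2 (MI against Sham) and from 0 to 18 (MI-E against MI). The 2 came without MI 2, where 285 of 15506 genes passed, and the 18 without MI 1, where 988 of 15471 did. Small subunit medians ranged from -0.12 to 0.060 (MI against Sham), 0.14 to 0.30 (MI-E against Sham-E) and 0.019 to 0.21 (interaction). Large over small summed TPM averaged 2.36, 2.38, 2.66 and 2.49 in Sham, Sham-E, MI and MI-E; it was 2.62, 2.61, 2.92 and 2.75 with Mrps30 and Mrps18a counted as large and Mrps36 left out, and 2.06, 2.05, 2.12 and 2.15 without Mrpl33, an alternative chosen after seeing the data. Beyond settings that left out genes or libraries, the cause was not tested. No paired analysis was possible because the Sham and MI-E columns carry numbers that do not match their samples' labels; the fit with a replicate block was not run. With 3 libraries per group, 4% of 50 simulated 1.5-fold changes of MI against Sham were recovered. Those genes were drawn from all genes tested, whose SD of log2 CPM had a median of 0.33, against 0.22 for the members. Recovery was not simulated for the members, so the 4% does not tell how often their differences would pass.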
